A study of Mus musculus with 3 samples.

Results

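The genes described here encode inhibitory receptors of B cells and myeloid cells, the phosphatases that such receptors recruit, and the kinase that phosphorylates them. They were chosen by name, and 9 of the 32285 genes in the files were members: Cd22, Cd72, Siglecg, Pirb, Lilrb4a, Cd300a, Ptpn6, Inpp5d and Lyn. Their transcripts were counted by single-cell RNA sequencing of splenocytes in 3 libraries, with T cells depleted by CD3 microbeads and cells of 3 mice combined for each condition. The control library held sham-treated male C57Bl/6 mice and female C57Bl/6 mice. The Ang II library held C57Bl/6 mice infused with angiotensin II by minipump for 2 weeks, with or without 2HOBA, a scavenger of isolevuglandins. The B6.SLE123 library held mice of the lupus-prone strain of that name, with 2HOBA for 6 weeks or without it. All mice were 12 to 14 weeks old. B6.SLE123 mice carry the lupus susceptibility intervals Sle1, Sle2 and Sle3 on a C57Bl/6 background. Each library carried 6 hashtag antibodies, C0301 to C0306, which the labels do not assign to conditions, so the conditions within a library were not compared and each hashtag population is given as a value of its own. With 1 library per group, the differences have no replicate check, no p-value is given, and library and group cannot be told apart.

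Each library held between 44146350 and 63516694 gene UMIs (unique molecular identifiers, 1 per captured RNA molecule), and between 14023 and 16708 cells of each were kept. Gated B cells made up 75.7% to 83.7% of them, with a median of 1775 to 2751 UMIs per cell. Levels are given as CPM, a gene's UMIs per 1e+06 UMIs of the class of cells they were summed over, with exact Poisson 95% intervals. Ratios between libraries carry exact 95% intervals. Both cover counting error only, and intervals of shares of cells cover only the sampling of cells. None covers differences between mice or hashtags. A gene was called past 2-fold when its log2 ratio of CPM was at least 1 in size with at least 50 UMIs over both libraries. Any gene, member or not, could reach this minimum through 1 library alone. Sex-linked transcripts also differed between the groups. In the control library, hashtags C0301 to C0303 had an Xist UMI in 0.165% to 0.386% of cells, while C0304 to C0306 had it in 49.2% to 51.7%. Every B6.SLE123 hashtag had it in 46.6% to 54.9% of cells, and every Ang II hashtag had a Y-linked UMI in 34.5% to 36.6%. Between 415 and 496 barcodes were listed in both libraries of a pair.

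Inhibitory receptors of this kind carry cytoplasmic tyrosine motifs called ITIMs. Lyn, a Src family kinase, phosphorylates these motifs, which then bind the tyrosine phosphatase SHP-1, encoded by Ptpn6, or the inositol phosphatase SHIP-1, encoded by Inpp5d. In B cells CD22, CD72 and Siglec-G restrain signaling from the B cell receptor in this way, and mice that lack Lyn or SHP-1 develop autoimmune disease. PIR-B, encoded by Pirb, binds MHC class I molecules, and it acts with LILRB4 and CD300a mainly on myeloid cells.

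The 250 bases before the transcription start are shown for the 3 B cell receptors, on which most results turn, from the RefSeq promoter table on GRCm38.p6. Of the 9 members, 7 had a promoter there. Capitals mark GAGGAA or its reverse complement TTCCTC, the core of the site bound by PU.1, a factor of B and myeloid cells. Of 32851 promoter windows of this length, 23.3% held this motif on either strand. The Siglecg window is that of the more upstream of its 2 listed starts, and the Cd22 window lies within the longer gene that GENCODE annotates.
Cd22, chr7:30879029-30879278, minus strand: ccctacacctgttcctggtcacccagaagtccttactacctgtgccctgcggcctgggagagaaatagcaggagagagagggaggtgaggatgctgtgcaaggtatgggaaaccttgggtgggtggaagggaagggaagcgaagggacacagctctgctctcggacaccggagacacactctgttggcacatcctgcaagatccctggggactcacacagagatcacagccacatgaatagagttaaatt
Cd72, chr4:43454627-43454876, minus strand: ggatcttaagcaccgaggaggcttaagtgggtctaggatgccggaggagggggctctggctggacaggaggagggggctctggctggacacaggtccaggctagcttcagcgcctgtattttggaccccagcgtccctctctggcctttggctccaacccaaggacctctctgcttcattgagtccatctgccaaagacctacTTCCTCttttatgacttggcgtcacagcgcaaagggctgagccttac
Siglecg, chr7:43407989-43408238, plus strand: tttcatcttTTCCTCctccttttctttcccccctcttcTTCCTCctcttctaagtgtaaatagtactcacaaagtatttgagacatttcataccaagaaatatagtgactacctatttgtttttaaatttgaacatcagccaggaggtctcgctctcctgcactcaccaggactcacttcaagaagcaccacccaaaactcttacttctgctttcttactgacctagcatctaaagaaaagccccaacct
The Cd72 window held 1 match, 47 bases before the start, and the Siglecg window held 2 matches that began 241 and 212 bases before it, while the window of the second Siglecg start held none. None was present in the Cd22 window. Among the 7 members with a promoter, 5 held a match in at least 1 window. A match describes these letters only and is no evidence of binding.

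The receptors separated by cell class. In the control library Cd22 stood at 329 CPM in B cells (95% interval 322 to 336), 65.5 in plasma cells and 1.85 in NK cells, which rested on 2 UMIs. Siglecg stood at 261 CPM in B cells (255 to 267), 76.9 in plasma cells and 63.5 in conventional dendritic cells. Cd72 was found at 238 CPM in B cells (232 to 244), and NK cells also carried it, at 107 CPM (88.7 to 129). Its share of NK cells with a UMI, thinned to 1000 UMIs per cell, was 11.3%, against 0.246% of neutrophils, a class that should lack it. The myeloid receptors had the opposite distribution. Cd300a was at 592 CPM in nonclassical monocytes, 457 in classical monocytes and 229 in neutrophils, against 1.41 in B cells. Pirb was at 307 CPM in neutrophils and 250 in classical monocytes, with 18.4 in B cells. Lilrb4a was highest in the small basophil and mast cell class, at 674 CPM (493 to 898, 46 UMIs), with 330 CPM in neutrophils and 4.50 in B cells. Lilrb4a has a near-identical copy, Lilr4b, and Pirb shares sequence with the Pira genes, so the counting may have split reads of these genes and their levels are uncertain.

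Lyn and the phosphatases were present in B, myeloid and NK cells, with Lyn and Ptpn6 lower in NK cells. Lyn was at 296 CPM in control B cells, 511 in nonclassical monocytes, 483 in classical monocytes, 252 in neutrophils and 60.2 in NK cells. Ptpn6 was at 434 CPM in B cells, 476 in nonclassical monocytes, 370 in classical monocytes and 78.7 in NK cells. Inpp5d was at 153 CPM in B cells, 146 in nonclassical monocytes, 132 in NK cells and 84.0 in neutrophils. The intervals of Inpp5d in B cells (148 to 158) and nonclassical monocytes (115 to 183) overlapped.

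**Figure D1:**
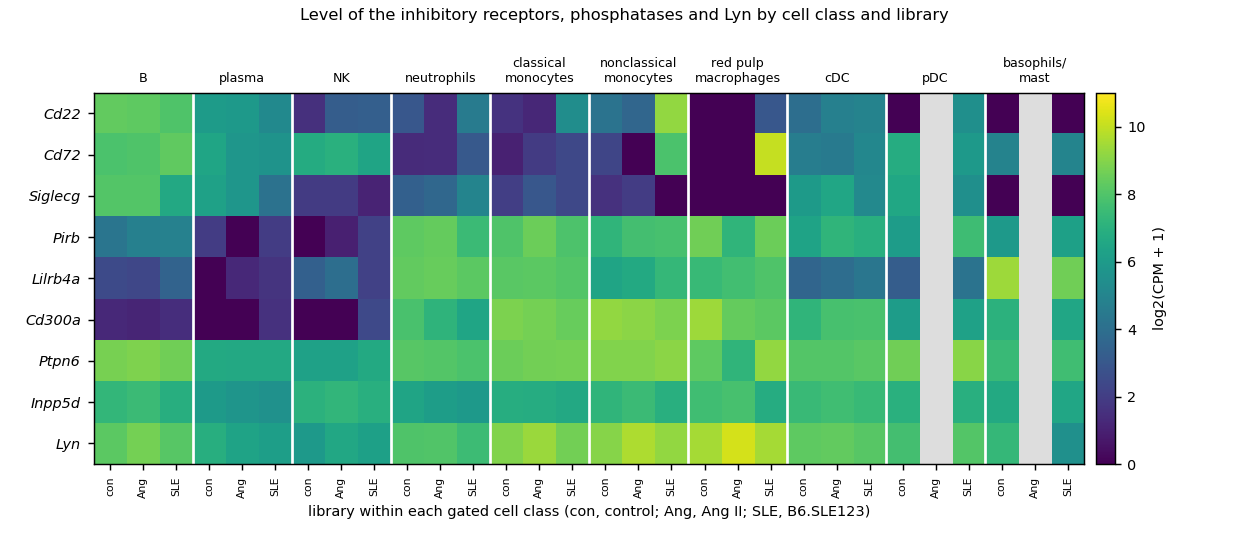
Color shows log2(CPM + 1) of each member in 10 gated cell classes, with the 3 libraries side by side (grey, fewer than 20 cells). Cd22 and Cd72 are bright in B cells, and Cd22 is also bright in nonclassical monocytes of the B6.SLE123 library, at 587 CPM. Genes differ in length and capture, so rows should be read across and not against each other.

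B cells of the B6.SLE123 library were compared with those of the control library for these brakes. All B6.SLE123 hashtags carried Xist, and that library also held mice given 2HOBA, while control hashtags C0301 to C0303 carried Y-linked transcripts. Strain, 2HOBA and library thus cannot be told apart here, and sex differed in the whole-library ratios. Of the 9 members, 2 were past 2-fold, Siglecg lower and Lilrb4a higher, where 6.66% of the 11359 genes tested were past it. The hashtag ranges of the libraries did not overlap for 3 members, Siglecg, Cd22 and Inpp5d, which were all lower, where this held for 19.5% of the genes tested and 10.4% in the lower direction. Within follicular and within marginal zone B cells, only Siglecg of these 3 kept separate ranges. In B cells assigned to no subset, all 3 did. The median log2 ratio of the members was -0.08, beside -0.05 over all genes tested.

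Siglecg, which encodes a sialic acid-binding receptor that dampens B cell receptor signals, was lower in B cells of the B6.SLE123 library. Its level was 98.1 CPM there (94.6 to 102), against 261 in control and 267 in Ang II B cells. The 6 B6.SLE123 hashtags were at 121, 90.1, 77.8, 99.0, 102 and 102 CPM in the order C0301 to C0306. The 6 control hashtags were at 262, 225, 277, 268, 281 and 263 CPM in the same order. Every B6.SLE123 population was thus below every control population, and below every Ang II population, which ranged from 247 to 278 CPM. Relative to control the log2 ratio was -1.41 (-1.48 to -1.35), a level 2.66-fold higher in control B cells. Thinned to 1000 UMIs, 22.6% of control and 9.99% of B6.SLE123 B cells had a Siglecg UMI, against 1.23% and 2.91% of neutrophils. The median depth before thinning was 1775 and 1916 UMIs in B cells and 1159 and 1534 UMIs in neutrophils.

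The whole-library level was lower in each B cell subset compared. Siglecg was at 321 CPM in control and 113 in B6.SLE123 marginal zone B cells, and at 247 and 100.1 CPM in follicular B cells (-1.30, -1.39 to -1.21), and in both the hashtag ranges did not overlap. The log2 ratio was -1.17 in germinal center B cells, -1.75 in B1-like cells, -2.19 in transitional cells and -2.21 in plasma cells, where too few hashtag populations held 20 cells for ranges to be formed. The transitional gate held 119 control and 53 B6.SLE123 cells, and other B cell genes were also lower in the latter. Its 10 B cell markers summed to 17894 and 11447 CPM, and Cd22 was at 269 and 87.2 CPM. Their part in the transitional Siglecg ratio was not tested. The control plasma cells numbered 38, and their only hashtag with 20 cells, C0302, was at 24.4 CPM (5 UMIs), within the B6.SLE123 range of 11.1 to 27.0 CPM. Conventional dendritic cells had 63.5 CPM in the control and 35.1 in the B6.SLE123 library (-0.85, -1.60 to -0.11). Neutrophils differed the other way, with 9.24 CPM (12 UMIs) in the control and 30.5 CPM (69 UMIs) in the B6.SLE123 library, and their hashtag ranges overlapped. The 10 B cell markers summed to 149 and 78.3 CPM in the same neutrophils. In B cells themselves, the 10 B cell markers summed to 13615 CPM in the control and 11740 CPM in the B6.SLE123 library. Among these 10, Pax5 was at 328 and 211 CPM and Ebf1 at 739 and 484 CPM, with hashtag ranges that did not overlap. These 2 markers were picked outside the rule for naming genes and do not stand for the list, and the other markers are not given singly. The part of these differences in the Siglecg ratio was not tested.

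Cd22, the sialic acid-binding co-receptor of B cells, was also lower, but by less. Its B cell level was 329 CPM in control, 308 in Ang II and 253 in B6.SLE123 mice. Control hashtags ranged from 323 to 341 CPM, with a median of 327, and B6.SLE123 hashtags from 228 to 319, with a median of 240. The highest B6.SLE123 population, C0303 at 319 CPM, lay apart from the other 5, which were at 228 to 251 CPM. This gave a log2 ratio of -0.38 (-0.43 to -0.34), and -0.46 without C0303. Germinal center B cells had 251 CPM in the control and 116 in the B6.SLE123 library (-1.11, -1.48 to -0.73), whereas follicular B cells had 334 and 293 CPM (-0.19, -0.25 to -0.13). The hashtag ranges of follicular B cells overlapped, at 323 to 362 CPM in control and 246 to 349 in B6.SLE123 mice. Those of marginal zone B cells did too. Germinal center B cells numbered 70 in the control and 471 in the B6.SLE123 library, and their part in the Cd22 ratio of all B cells was not tested.

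Cd72, a receptor for the class IV semaphorin CD100, had a level of 238 CPM in control, 249 in Ang II and 321 in B6.SLE123 B cells. The B6.SLE123 hashtags spread widely, from 239 CPM in C0301 and C0306 to 490 in C0303. The control hashtags ranged from 216 to 268 CPM, so that the groups overlapped. Its log2 ratio was 0.43 (0.39 to 0.48) and 0.27 without C0303. In follicular B cells Cd72 was at 229 CPM in the control and 358 in the B6.SLE123 library (0.65, 0.59 to 0.71), while in germinal center B cells it was at 298 and 149 CPM, where 1 control hashtag held 20 cells.

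**Figure D2:**
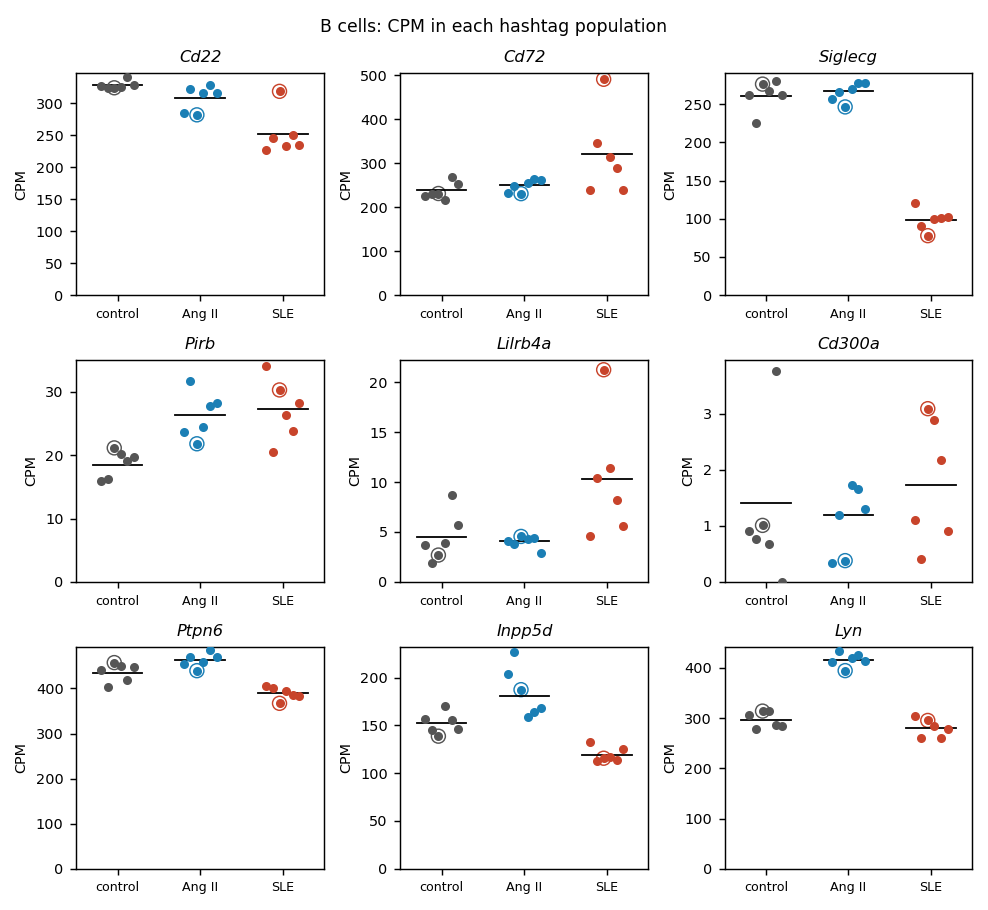
Each point is the CPM of a gene in the B cells of 1 hashtag population, with 6 populations in each library (SLE is B6.SLE123), and the bar is the CPM of the whole library. Rings mark hashtag C0303. Siglecg is at 77.8 to 121 CPM in B6.SLE123 and at 225 CPM or above elsewhere, and Lyn is at 395 to 433 CPM in Ang II and at 315 CPM or below elsewhere.

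Inpp5d was at 153 CPM in control and 119 in B6.SLE123 B cells. The control hashtags ranged from 139 to 170 CPM and the B6.SLE123 hashtags from 113 to 133, without overlap, and the log2 ratio was -0.36 (-0.42 to -0.29). In follicular B cells alone the ranges were 137 to 175 and 110 to 139 CPM and overlapped, and in marginal zone B cells they also overlapped. Ptpn6 was at 434 and 390 CPM, with ranges of 402 to 457 and 367 to 406 that overlapped and a log2 ratio of -0.15 (-0.19 to -0.12). Lyn was at 296 and 281 CPM (-0.08, -0.12 to -0.03), with overlapping ranges. Pirb, the myeloid receptor with the highest count in B cells, was at 18.4 and 27.3 CPM (0.57, 0.40 to 0.73), with overlapping ranges.

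Lilrb4a was rare in B cells, at 4.50 CPM in the control and 10.3 in the B6.SLE123 library (1.20, 0.89 to 1.51). The highest B6.SLE123 population was again C0303, at 21.2 CPM, and the other 5 were between 4.62 and 11.4. The 6 control populations were at 3.65, 1.92, 2.69, 3.87, 8.73 and 5.65 CPM in the order C0301 to C0306. The call past 2-fold was lost without C0303, at 0.84, without removal of doublets, at 0.99, and against control cells with an Xist UMI, at 0.27. Cd300a was near the floor in B cells, at 1.41 and 1.74 CPM, and the interval of its log2 ratio included 0 (-0.33 to 0.93).

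In myeloid cells, 2 of 9 members were past 2-fold in the B6.SLE123 against the control library, Cd22 and Cd72, both higher, where 4.52% of 7938 genes were past it. The hashtag ranges did not overlap for 1 member, Cd22, where this held for 2.44% of genes. The myeloid gate held 643 control and 1119 B6.SLE123 cells of several classes, of which nonclassical monocytes were 217 and 414, so the monocyte classes are described separately.

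Cd22 transcripts were abundant in nonclassical monocytes of the B6.SLE123 library and almost absent from those of the other libraries. This class patrols vessels and held 100 cells in the Ang II library, and all 8 of its markers were present in each library. Their levels differed, with a sum of 5162 CPM in control and 4534 in B6.SLE123 mice. Ace was at 1126 and 617 CPM and Cd300e at 254 and 389 CPM, and the part of such differences was not tested. The Cd22 level of the class was 587 CPM (453 UMIs, 534 to 643) in B6.SLE123 mice, against 17.5 CPM (9 UMIs, 7.99 to 33.2) in control and 11.5 CPM (4 UMIs) in Ang II mice. All 6 B6.SLE123 hashtags carried it, at 542, 660, 480, 774, 741 and 635 CPM in the order C0301 to C0306. The 5 control hashtags with at least 20 cells ranged from 0 to 45.1 CPM, and the 2 Ang II hashtags reached 14.0 CPM. Against the control, the log2 ratio was 5.07 (4.13 to 6.21), with no overlap of ranges, and 3.70 where Leiden clusters defined the class. The level in these B6.SLE123 monocytes was above that in B6.SLE123 B cells, at 253 CPM.

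B cell transcripts were examined beside this result. All 10 B cell markers had UMIs in nonclassical monocytes of the B6.SLE123 and control libraries, and 9 did in the Ang II library, where Spib was at 0. Summed over the list they reached 225 CPM in B6.SLE123, 146 in control and 132 in Ang II mice, and 127 to 428 CPM over the 6 B6.SLE123 hashtags. B6.SLE123 B cells held 2.15 Cd22 UMIs for every 100 B cell marker UMIs, and the nonclassical monocytes of the same library held 260. Of the 414 cells, 233 had a Cd22 UMI, and 174 of these had no UMI of any B cell marker. That was 74.7% of them, against 63.0% of the cells without Cd22. In the 288 cells with no B cell marker Cd22 stood at 648 CPM. No Siglecg UMI was found in the 414 cells, which allows up to 3.89 CPM (3 UMIs).

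The difference was also present at equal depth. Thinned to 1000 UMIs, 42.1% of 342 B6.SLE123 nonclassical monocytes (36.8% to 47.5%) and 1.95% of 205 control cells (0.534% to 4.92%) had a Cd22 UMI, with 72 and 12 shallower cells left out. These intervals treat cells as the units and do not cover the spread between hashtags. Before thinning, the share with Cd22 ranged from 48.8% in C0303 to 70% in C0305 over the B6.SLE123 hashtags. NK cells of the B6.SLE123 library, thinned alike, had a Cd22 UMI in 0.222%. The median depth before thinning was 2035 UMIs in control and 1540 in B6.SLE123 nonclassical monocytes. In classical monocytes, Cd22 was at 2.08 CPM (2 UMIs) in the control and 41.0 CPM (39 UMIs) in the B6.SLE123 library, a log2 ratio of 4.30 (2.35 to 7.40). The 5 B6.SLE123 hashtags with enough cells ranged from 28.1 to 79.4 CPM and the 4 control hashtags from 0 to 9.13, without overlap.

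**Figure D3:**
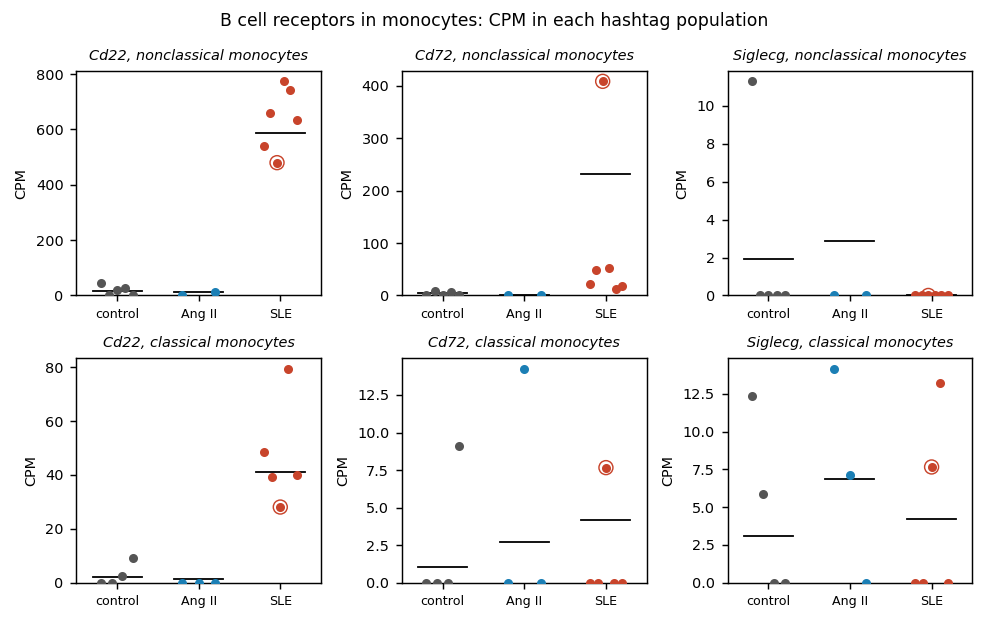
Points are the CPM of Cd22, Cd72 and Siglecg in nonclassical (top) and classical (bottom) monocytes of each hashtag population with at least 20 cells, bars are whole libraries, SLE is the B6.SLE123 library and rings mark hashtag C0303. All 6 B6.SLE123 populations lie at 480 CPM or above for Cd22 in nonclassical monocytes, whereas Cd72 is highest in C0303, at 408 CPM.

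Cd72 differed from Cd22 in where it was found. In nonclassical monocytes it was at 3.88 CPM (2 UMIs) in the control and 232 CPM (179 UMIs) in the B6.SLE123 library, but 166 of the 179 UMIs came from hashtag C0303. That population was at 408 CPM, and the other 5 were between 12.1 and 52.3 CPM on 1, 4, 5, 1 and 1 UMIs, beside 0 or 1 UMI in each of the 5 control populations, so the separation of the hashtag ranges rests on few counts. Its log2 ratio was 5.90 (4.03 to 8.96), and it was 3.20 without C0303 and 2.01 where Leiden clusters defined the class. C0303 also held 201 of the 414 cells and most of the C1qa UMIs, 139, with 4 in C0302 and none in the others. Of the 280 cells with either transcript, 17 had both, which was 7.30% of the cells with Cd22 and 26.6% of those with Cd72.

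Cd72 was highest in the gate drawn with red pulp macrophage markers. In the B6.SLE123 library it stood at 1041 CPM there (926 to 1167, 296 UMIs), of which C0303 gave 258 UMIs in 98 of the 169 cells. No UMI was found in the 29 control or 47 Ang II cells of this gate. Against a floor of 3 UMIs in the control class, the B6.SLE123 level was at least 12.4-fold higher. The marker levels of this gate differed between the libraries. All 10 markers were present in each, but Slc40a1 was at 3393 CPM in the control and 499 in the B6.SLE123 library and Vcam1 at 4375 and 1097, while C1qa was at 3702 and 3510, and their part in the result was not tested. Without C0303 the log2 ratio of Cd72 over all myeloid cells was 1.59 in place of 3.66 (3.12 to 4.26).

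The myeloid receptors and shared enzymes differed less. Over 8 members with enough UMIs in nonclassical monocytes, 2 were past 2-fold (4.89% of 3684 genes) and 3 had ranges without overlap (2.74%), the third being Lilrb4a. Lilrb4a was at 85.4 CPM in control and 161 in B6.SLE123 nonclassical monocytes (0.91, 0.40 to 1.44), with hashtags at 16.8 to 135 and 146 to 272 CPM. Its copy Lilr4b was at 13.6 CPM (7 UMIs) and 55.7 CPM (43 UMIs). Cd300a was at 592 and 460 CPM (-0.36, -0.59 to -0.14), Ptpn6 at 476 and 548 (0.20, -0.03 to 0.44), Inpp5d at 146 and 122 (-0.26, -0.71 to 0.20) and Lyn at 511 and 601 (0.24, 0.01 to 0.46), each with overlapping ranges. Over all myeloid cells, Cd300a was at 386 and 318 CPM (-0.28, -0.41 to -0.15) and Ptpn6 at 366 and 425 (0.21, 0.09 to 0.34).

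Neutrophils showed lower Cd300a, with 87.2 CPM in B6.SLE123, 142 in Ang II and 229 in control mice. The hashtags spread over 64.0 to 349, 105 to 374 and 116 to 563 CPM and overlapped. Against the control, the B6.SLE123 log2 ratio was -1.39 (-1.66 to -1.13) and that of Ang II was -0.69 (-0.91 to -0.47). Of 8 members tested, 3 were past 2-fold in B6.SLE123 neutrophils, Cd300a lower and Cd22 and Siglecg higher, beside 11.7% of 4920 genes, and none had ranges without overlap, beside 1.59%. The neutrophil markers differed as well. All 10 had UMIs in each library, and their summed level ranged over hashtags from 207434 to 426673 CPM in control, 279072 to 429166 in Ang II and 291993 to 417712 in B6.SLE123 mice. Csf3r, the G-CSF receptor, was at 1297 CPM in control, 671 in Ang II and 393 in B6.SLE123 neutrophils, and the chemokine receptor Cxcr2 was at 807, 481 and 380 CPM. The granule genes Ngp (26981, 44336 and 43644 CPM) and Camp (31283, 35556 and 45754 CPM) were higher in the latter libraries, and the part of these differences in the Cd300a ratio was not tested. Pirb was at 307 and 181 CPM (-0.77, -0.97 to -0.57) in control and B6.SLE123 neutrophils.

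**Figure D4:**
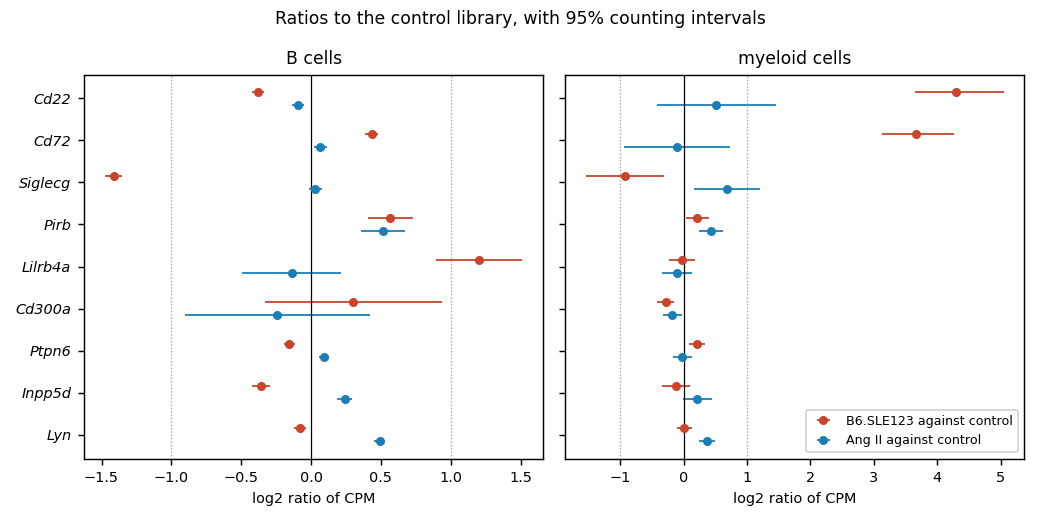
Points are log2 ratios of CPM to the control library in B cells (left) and all myeloid cells (right), with 95% intervals of counting error, red for B6.SLE123 and blue for Ang II. Dotted lines mark 2-fold. Siglecg in B cells (-1.41) and Cd22 (4.30) and Cd72 (3.66) in myeloid cells lie farthest from 0 in the B6.SLE123 comparison.

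The Ang II library was compared with the control library for the same genes. The control library also held female mice, and the Ang II library also held mice given 2HOBA. Infusion, 2HOBA and library thus cannot be told apart here. Sex also differed in the whole-library ratios. Control hashtags C0301 to C0303 had a Y-linked UMI in 23.5% to 25.5% of cells, and the Lyn ratio is also given against control cells with such a UMI. In B cells 0 of 9 members were past 2-fold, where 1.59% of 11348 genes were. The hashtag ranges did not overlap for 2 members, Lyn and Pirb, which were both higher, where this held for 12.8% of genes and for 7.9% in the higher direction. The median log2 ratio was 0.07 for the members and 0.06 for all genes tested.

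Lyn, the kinase upstream of the ITIM receptors, was at 296 CPM in control and 416 CPM in Ang II B cells. The 6 Ang II hashtags were at 412, 433, 395, 421, 425 and 414 CPM in the order C0301 to C0306. The control hashtags ranged from 279 to 315 CPM, with a median of 296. Every Ang II population was above every control and B6.SLE123 population. Its log2 ratio was 0.49 (0.45 to 0.53), and it was 0.48 against control cells with a Y-linked UMI. Thinned to 1000 UMIs, 3068 of 12254 control and 3544 of 10881 Ang II B cells had a Lyn UMI.

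The whole-library level of Lyn was also higher in 3 B cell subsets, in monocytes and in NK cells of the Ang II library. Its log2 ratio was 0.50 in marginal zone, 0.47 in follicular and 0.46 in transitional B cells. In these 3 subsets the ranges did not overlap, but those of transitional cells rest on 3 control and 4 Ang II hashtags. NK cells were at 60.2 CPM in control and 94.7 in Ang II mice, and their hashtag ranges overlapped. Classical monocytes were at 483 CPM in control and 654 in Ang II mice (0.44, 0.25 to 0.62), with 4 control hashtags at 429 to 530 and 3 Ang II hashtags at 614 to 846 CPM. Nonclassical monocytes were at 511 and 796 CPM (0.64, 0.39 to 0.89), where only 2 Ang II hashtags held enough cells. In neutrophils the levels were 252 and 254 CPM (0.01, -0.17 to 0.20) and the log2 ratio in conventional dendritic cells was 0.09 (-0.21 to 0.39). Whether these classes differed from B cells in their ratio was not tested.

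**Figure D5:**
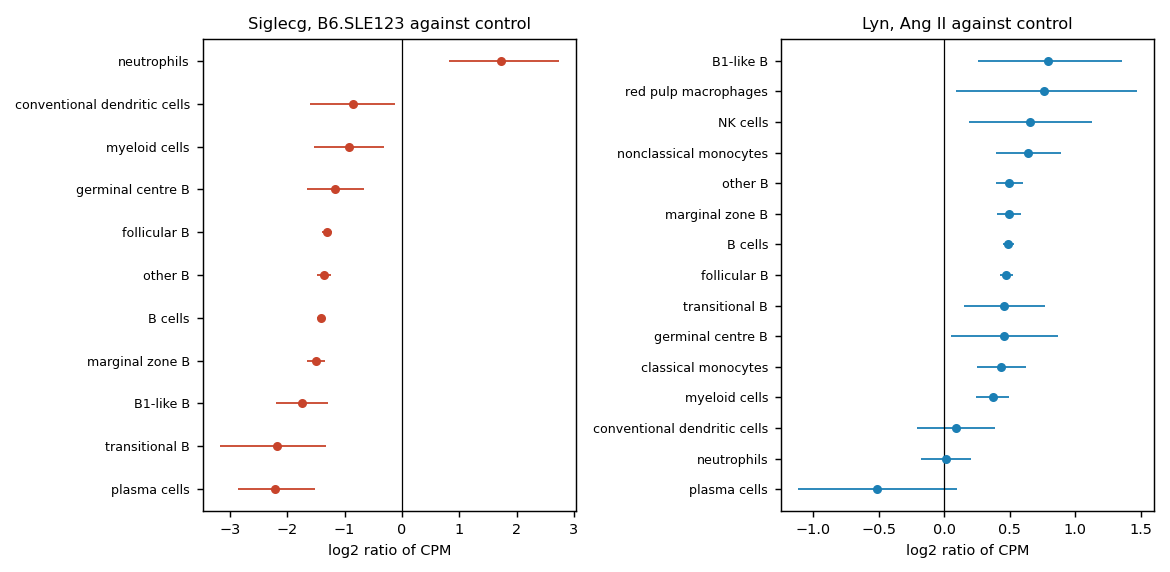
Log2 ratios of CPM with 95% intervals of counting error by cell class, for Siglecg in the B6.SLE123 against the control library (left) and Lyn in the Ang II against the control library (right), for classes with at least 20 UMIs. B cells hold the subsets shown, and myeloid cells hold the monocytes, macrophages and dendritic cells. Siglecg is below 0 except in neutrophils, and the Lyn intervals lie above 0 except in conventional dendritic cells, neutrophils and plasma cells.

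Pirb was at 18.4 CPM in control and 26.3 in Ang II B cells. Its hashtags ranged from 15.9 to 21.2 CPM in control mice and from 21.8 to 31.7 in Ang II mice, and the log2 ratio was 0.52 (0.36 to 0.68). The separation was narrow. In classical monocytes Pirb was at 250 and 370 CPM (0.57, 0.31 to 0.82) and in conventional dendritic cells at 82.1 and 147 CPM (0.84, 0.31 to 1.38). The hashtag ranges did not overlap in either, but only 4 control and 3 Ang II hashtags and 3 and 3 hashtags held enough cells. In classical monocytes they were at 198 to 292 and 378 to 411 CPM, so the whole Ang II class lay below its 3 hashtags. The share of all genes with separate ranges was not computed in these classes. Inpp5d was at 153 and 180 CPM in B cells (0.24, 0.18 to 0.30), with overlapping ranges. Ptpn6 (434 and 463 CPM), Cd22 (329 and 308) and Cd72 (238 and 249) also overlapped, with log2 ratios of 0.09, -0.09 and 0.07. In myeloid cells 0 of 8 members were past 2-fold (1.12% of 7249 genes), and 0 had ranges without overlap (1.37%). Lyn was there at 429 and 554 CPM (0.37, 0.24 to 0.50), with hashtags at 378 to 471 and 429 to 717 CPM.

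Of 49 other genes of the pathway, 1 was past 2-fold with ranges that did not overlap in B cells or myeloid cells. In B cells 3.61% of all genes tested met both criteria for B6.SLE123 and 0.546% for Ang II, and in myeloid cells 0.831% and 0.0966%. Ptpn22, a tyrosine phosphatase that acts on Src family kinases, was at 28.0 CPM in control and 60.8 in B6.SLE123 B cells (1.12, 0.99 to 1.24). Of 15 other inhibitory receptors tested in B6.SLE123 B cells, 2 were past 2-fold higher and none lower, beside 6.66% of all genes in either direction, while the ranges lay above in 1 and below in 3, beside 19.5% in either direction. Of 11 other phosphatases, ranges lay above in 2 and below in 1, and of 15 kinases and adaptors above in 2 and below in 1. In Ang II B cells, ranges lay above in 4 of 16 kinases and adaptors, below in 1 of 11 phosphatases and apart in none of 13 receptors, where ranges lay apart for 12.8% of all genes and above for 7.9%. No gene of the lists was past 2-fold there, beside 1.59% of all genes. Those 4 were Csk, the kinase that restrains Src family members, at 282 against 216 CPM, with Cblb, Btk and Blnk, which were named after their values were seen.

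In B6.SLE123 myeloid cells, 5 of 17 other inhibitory receptors tested were past 2-fold higher and 1 lower, beside 4.52% of all genes in either direction, with a median log2 ratio of 0.54 and hashtag ranges that overlapped for all 17. In nonclassical monocytes 4 of 12 were higher and 1 lower, beside 4.89%, and the ranges lay above in 1 and below in 1. Those last genes, named after their values were seen, were Siglece and Fcgr2b. Siglece, a sialic acid-binding receptor of myeloid cells, was at 7.77 CPM (4 UMIs) in control and 337 CPM (260 UMIs) in B6.SLE123 nonclassical monocytes (5.44, 4.07 to 7.33). Fcgr2b, the inhibitory receptor for IgG, was at 128 CPM (66 UMIs) and 6.48 CPM (5 UMIs) (-4.31, -5.98 to -3.01). None of the phosphatases, kinases and adaptors tested in either class was past 2-fold.

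The chromosomal neighbors of the receptors were examined in B6.SLE123 B cells, since Cd22, Siglecg and Pirb lie on chromosome 7. Cd22 spans 30865402 to 30880342 and Siglecg spans 43408204 to 43418358 on GRCm38. Ffar1, a fatty acid receptor gene next to Cd22 (30857390 to 30861564), had 1359 UMIs in control and 63 in B6.SLE123 B cells, a log2 ratio of -4.55. It was the only gene past 2-fold among the 10 nearest tested neighbors of Cd22, whose median was -0.13. Of the 10 nearest neighbors of Siglecg, 4 were past 2-fold, from -1.55 for Nkg7 to 3.11 for Zfp658. Of the 10 nearest neighbors of Pirb, 2 were past it, Gm15448 at -2.44 and Gm14548 at 1.30, and of those of Ptpn6, 1 was. Among the neighbors of Cd72, Lilrb4a, Cd300a, Inpp5d and Lyn, none was past it, where 6.66% of all genes tested in B cells were. Nonclassical monocytes had 0 Ffar1 UMIs in the B6.SLE123 library and 1 in the control.

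Across 37 sums of a class in a library, the gene most like each member in log2(CPM + 1) was found among 11222 genes. These points share libraries and depth, and r is a description. Cd22 was most like Fcrl1, a B cell Fc receptor-like gene (r = 0.87), Cd72 was most like Myo1e (0.93) and Siglecg was most like Cyb561a3 (0.92). Cd300a was most like Ltbr (0.98), Pirb most like Gpx1 (0.92) and Lilrb4a most like Ccl6 (0.91). Lyn and Ptpn6 shared their most like gene, Ptprj, a receptor tyrosine phosphatase (0.94 and 0.89), and Inpp5d was most like Spag9 (0.85). Among the members themselves, Lyn and Ptpn6 had the highest r, 0.86, and Pirb and Cd300a followed at 0.84.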

How the data were processed

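Single-cell RNA was measured in 3 libraries of T cell-depleted splenocytes, and the authors deposited unnormalized counts of UMIs for every gene and hashtag antibody. The submitters' processing notes name Cell Ranger 6.0.0 and mm10. Reads of the B6.SLE123 strain were counted on this C57Bl/6 reference, and its effect on the counts was not tested. Barcodes with over 200 and under 3500 genes and under 15% mitochondrial UMIs were kept, and barcodes above the threshold of more than 1 hashtag were left out as doublets. Pairs of cells with the same hashtag could not be seen. Cells were gated per cell on marker genes. B cells needed 3 of 10 markers and a lead of 3 over other classes, and the remaining classes needed 2 to 5 markers. UMIs were summed by class, library and hashtag (at least 20 cells) and divided by the total. Members and lists were chosen with earlier results of these data known, and the scoring rule of the gate, and the monocyte classes described, after seeing the data. By rule, named genes were all members, pathway genes past 2-fold in B or myeloid cells with at least 50 UMIs and no overlap of ranges, nearest neighbors and most alike genes. Outside this rule, Csk, Cblb, Btk, Blnk, Siglece and Fcgr2b were named after their values were seen. The copy Lilr4b and individual cell class markers, such as Pax5, Vcam1 and Csf3r, are also outside it. Gene positions are those of GENCODE vM21. Python 3.11.15, scipy 1.17.1, scanpy 1.11.5 and edgeR 4.0.16 (TMM scaling only) were used. The code of the ratio intervals was run on simulated Poisson counts, the model that these intervals assume. The simulated counts held no variation between mice, hashtags or cells, so the run cannot show how the intervals do with it. Alternatives were other cell filters, no doublet removal, another scaling, a stricter gate, Leiden clusters, hashtag medians, each hashtag left out and no minimum count; control cells with Xist or Y-linked UMIs and cells without B cell markers were added after seeing the data.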

Additional observations from a re-analysis of the deposited data

Results flagged for a closer look

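Among 57 sets of 4 to 10 hashtag populations, 10 held a highest or lowest value that stood apart from the rest by Dixon's criterion, which chance alone does in about 1 in 20. In B6.SLE123 B cells, Cd22 was at 319 CPM in hashtag C0303, where the nearest other population was at 251. In B6.SLE123 myeloid cells, Cd72 was at 334 CPM in C0303, with the next at 87.0, and in B6.SLE123 nonclassical monocytes Pirb was at 295 CPM in C0303, with the next at 181. In that same class Cd300a was at 677 CPM in C0301 (30 cells) and Lilrb4a at 272 CPM in C0306 (32 cells), with the nearest others at 502 and 183. In the control library, hashtag C0305 stood apart for Cd22 in B cells at 341 CPM, for Lilrb4a in myeloid cells at 212 CPM and for Pirb in nonclassical monocytes at 198 CPM. Siglecg in control B cells was lowest in C0302, at 225 CPM, where the nearest other was at 262. Siglecg in Ang II myeloid cells was at 69.2 CPM in C0305 (81 cells), where the nearest other was at 40.3.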

How the results depend on the processing

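No paired analysis was possible because each group was 1 library. Of 946 alternative values, 871 stayed within the interval, or for counts within 1.5 times, and 75 moved; no called ratio changed sign. Members past 2-fold in B6.SLE123 B cells fell from 2 to 1 without doublet removal and against control cells with an Xist UMI, and ranged from 1 (without B6.SLE123 C0303) to 2 with single hashtags left out. In Ang II B cells this count was 1 (Lilrb4a) against control cells with a Y-linked UMI, and members with separate ranges were 1 with the filter limits read as UMIs and 2 to 3 with hashtags left out (3 to 4 in B6.SLE123). In myeloid cells, members with separate ranges in B6.SLE123 were 2 with Leiden clusters, and those past 2-fold were 2 to 3 with hashtags left out. For Ang II, members past 2-fold were 1 (Siglecg) in cells with no B cell marker, and both Ang II counts ranged from 0 to 1 with hashtags left out (1 without control C0301, and 1 without Ang II C0304). Siglecg in B6.SLE123 B cells was -1.28 with limits read as UMIs and -1.53 against control cells with an Xist UMI (-1.47 to -1.35 with hashtags left out). Lyn in Ang II B cells was 0.44 under TMM scaling. In nonclassical monocytes defined by Leiden clusters, the log2 ratio was 3.70 for Cd22 and 2.01 for Cd72, and with hashtags left out it was 4.67 to 5.65 and 3.20 to 6.50. The causes of these moves were not tested. Thinning to 500 UMIs gave shares with Siglecg of 12.4% and 5.14% in control and B6.SLE123 B cells and with Cd22 of 26.6% in B6.SLE123 nonclassical monocytes. TMM moved ratios by at most 0.06. The control monocyte classes held 9 or fewer Cd22 and Cd72 UMIs, which limits the precision of those ratios.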
